A study of Rattus with 6 samples.

Results

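Of the genes known for making and releasing extracellular vesicles, 40 were followed in RNA sequencing libraries of rat bone marrow mesenchymal stem cells, stromal cells that grow attached in culture. They were taken by name from a deposited table of 16690 genes, and all 40 were present. The cells came from the long bones of wild-type Sprague Dawley rats and were grown in α-MEM with fetal bovine serum, giving 3 libraries of rats modelling chronic kidney disease (CKD) and 3 of healthy rats as control. The means of inducing CKD and the ages of the animals are not given in the sources used here. The extract protocol names exosome samples as the source of RNA, whereas the design text names the cells, and it is not known here which holds, so levels are called those of the libraries. The tag for the disease model contradicts the title, library name and column code of a library in each group: it reads control for CKD replicate 1 and CKD for control replicate 2. Groups here follow title, name and code, and the library titled CKD 4 is CKD replicate 3 by its code.

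Cells release vesicles along 2 main routes. Small vesicles bud into the lumen of late endosomes, and the resulting multivesicular bodies fuse with the plasma membrane, while other vesicles bud from the plasma membrane itself. Budding into endosomes is driven by the endosomal sorting complexes (ESCRT-0, -I, -II and -III with the ATPase VPS4), by ceramide that neutral sphingomyelinases make from sphingomyelin, or by tetraspanins and the syndecan adaptor syntenin. Rab and Ral GTPases then move and dock the bodies, and SNARE proteins fuse them with the membrane. The series title ties vesicles of these cells to vascular calcification, and the comparison asks how transcripts of cells from diseased rats differ from those of healthy rats.

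Expression is given in FPKM (fragments per kilobase of gene, scaled to the depth of the library), with 34404037 to 46892613 fragments per library recovered from the table. The libraries did not separate by group alone. CKD replicates 2 and 3 were alike (Pearson r = 0.996 across genes, on log2 values) and so were control replicates 2 and 3 (r = 0.998), while CKD replicate 1 was closest to control replicate 1 (r = 0.967); these describe the libraries only, since genes are not independent replicates. All 12 mesenchymal markers were present, with summed levels of 10807 to 16266 FPKM in CKD and 12496 to 15168 FPKM in control. Their medians differed more, at 392, 349 and 276 FPKM in CKD replicates 1, 2 and 3, against 209, 107 and 103 FPKM in control replicates 1, 2 and 3. Single markers went either way, with log2 fold changes of 3.26 for Dcn and -1.36 for Eng (limma adjusted p = 0.0985 and 0.370). The sums thus do not show that stromal content was matched. The 16 haematopoietic and macrophage markers summed to 288, 3173 and 2108 FPKM in CKD replicates 1, 2 and 3, against 380, 21.4 and 13.8 FPKM in control replicates 1, 2 and 3. None of the 12 tested was called (2.07% of all tested genes), and 9 had an unadjusted p under 0.05 (22.1% of all tested genes). Values of 0 FPKM occurred in controls only, for C1qc in control replicates 2 and 3, and for C1qb and Adgre1 in control replicate 3. Between the first replicates, 2 of the 16 markers were higher in CKD than in control. The labels describe the cells as negative for CD45 by flow cytometry. Its gene Ptprc stood at 0.783, 15.5 and 11.4 FPKM in the CKD libraries 1, 2 and 3, against 1.33, 0.0140 and 0.0204 FPKM in the control libraries 1, 2 and 3. The part of such cells in the results below was not tested. In such bulk libraries, fewer cells of a type and less RNA per cell cannot be told apart.

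Most vesicle genes stood at similar levels in both groups, and Smpd3, which encodes neutral sphingomyelinase 2, was the exception. Its mean was 4.50 times as high in CKD as in control, and no CKD library overlapped with a control library. Among the abundant genes, the tetraspanin gene Cd81 was lower in every CKD library than in any control, without passing the test. Of the 40 genes, 38 reached the filter of at least 1 FPKM in at least 3 libraries and were tested, while Smpd3 and Rab27b stayed below it. By limma on log2(FPKM + 1), 0 of the 38 passed at an adjusted p of 0.05, where 2.07% of all 10638 tested genes did. At an unadjusted p under 0.05, 3 of the 38 stood out (Cd81, Cd151 and Hgs), against 22.1% of all tested genes, and limma-voom on recovered fragment counts also called 0 (1.16% of all tested genes). Without a filter on low values, 1 of the 40 passed, and that was Smpd3. In that fit 0.797% of 16690 genes were called. Smpd3 was also the 1 gene that passed in limma-voom with no filter (0.515%). It passed with the filter lowered to 0.5 FPKM as well (2.08% of all genes in that fit), but only its 3 CKD libraries reach that level, so this filter admits it through the group where it is high and the pass is no further support.

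The size of the differences was small for most of them. Log2 fold changes of the 38 ran from -0.52 to 0.24 with a median of 0.019, against a median of 0.053 over all tested genes. With FPKM rescaled by size factors or upper quartile, or with limma-voom, the median of the 38 was -0.059, -0.054 and -0.063. The median over all tested genes was then -0.016, -0.012 and -0.017, so the sign of both medians depended on the scaling. Of the 38, 22 had positive and 16 had negative values in the main fit. The 95% interval lay within 0.5 on either side of 0 for 27 of them, and this held for 51.5% of all tested genes, so differences beyond that size are outside the interval for those 27 only. The 2 groups did not overlap for 6 of the 38 (2 higher and 4 lower in CKD), against 27.8% of all tested genes. The ratio of the highest to the lowest library had a median of 1.31 over the 38 and of 1.48 over all tested genes.

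**Figure D1:**
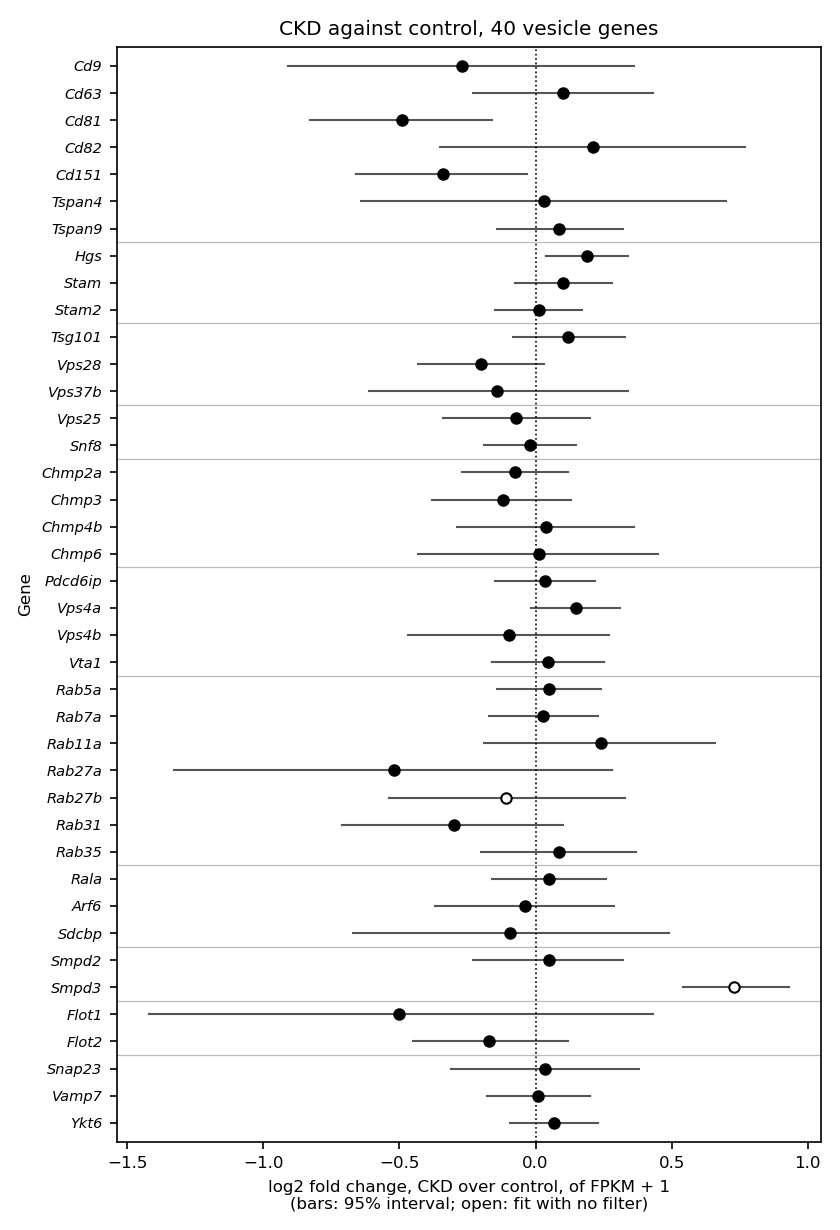
Log2 fold change (CKD over control) of FPKM + 1 for each of the 40 genes, ordered by role from tetraspanins at the top to SNAREs at the bottom; dots are estimates, bars 95% intervals, and open dots the 2 genes fitted with no filter on low values. Smpd3, at 0.73, is the only gene whose whole interval lies above 0.5, and the intervals of Cd81 and Cd151 lie below 0.

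Of the pair of neutral sphingomyelinase genes, Smpd3 differed between groups and Smpd2 did not pass. Smpd3 (NCBI Gene 94338) encodes the membrane enzyme whose ceramide promotes budding into multivesicular bodies, and in mouse its loss impairs the mineralization of bone and cartilage. Its levels were 0.909, 0.988 and 1.28 FPKM in the CKD libraries 1, 2 and 3, against 0.231, 0.260 and 0.216 FPKM in control replicates 1, 2 and 3. All 3 CKD libraries were thus above every control, and 16.9% of all genes in the table shared that order. These values rested on 191, 185 and 301 fragments in CKD and on 59, 59 and 45 fragments in control, so the gene was low but counted in every library. The mean of the CKD libraries was 1.06 ± 0.198 FPKM and that of the control libraries 0.236 ± 0.0222 FPKM (SD, n = 3 each). Without a filter its log2 fold change was 0.73 ± 0.079 SE (95% interval 0.54 to 0.93, limma adjusted p = 0.0356), on a scale of log2(FPKM + 1) that understates the change of a gene this low. Limma-voom on recovered counts with no filter gave 2.08 ± 0.25 SE (95% interval 1.48 to 2.68, adjusted p = 0.0480).

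That call lay close to the threshold and close to the filter. It was lost on leaving out replicate 2 or 3 of CKD, or replicate 2 or 3 of control (limma adjusted p = 0.159, 0.135, 0.188 and 0.245), while the log2 fold change stayed between 0.66 and 0.79 in all 6 fits that left out a library. It was also lost with libraries of shared name starts averaged (adjusted p = 0.0788) and by the disease model tag (log2 fold change 0.33, adjusted p = 0.735). With the filter of 1 FPKM, those leave-out fits called 9, 8, 7 and 6 of all 10638 tested genes, in the same order. The fit by the tag called 0 of them, the fit with shared name starts averaged 259, and the main fit 220. Fewer genes were thus called across the series in those leave-out fits and by the tag, but not with name starts averaged. These counts come from filtered fits, while the Smpd3 values come from fits with no filter. The cause of the lost call was not tested. Smpd3 was 3.93 times as high in CKD replicate 1 as in control replicate 1, a comparison of 1 library with 1. Between the means of replicates 2 and 3 of each group the ratio was 4.78. The macrophage markers summed to 288 FPKM in CKD replicate 1 and 380 FPKM in control replicate 1. The part of macrophages in the Smpd3 difference was not tested.

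Smpd2 (NCBI Gene 83537), which encodes neutral sphingomyelinase 1, showed no such difference. Its levels were 5.33, 5.15 and 5.36 FPKM in the CKD libraries 1, 2 and 3, against 4.38, 4.94 and 6.01 FPKM in control replicates 1, 2 and 3. The groups overlapped (log2 fold change 0.048 ± 0.11 SE, 95% interval -0.23 to 0.32, limma adjusted p = 0.836). Per length, Smpd2 was the more abundant of the pair in every library, by 5.86, 5.21 and 4.17 times in CKD replicates 1, 2 and 3, against 19.0, 19.0 and 27.8 times in control replicates 1, 2 and 3. Of the other sphingomyelinase genes in a wider list, Smpd4 had a log2 fold change of 0.012 ± 0.092 SE (limma adjusted p = 0.953). Smpd1, which encodes the acid sphingomyelinase of lysosomes, stood at 62.4, 58.7 and 58.9 FPKM in CKD, against 66.9, 78.9 and 81.8 FPKM in control, below every control but without passing (log2 fold change -0.33 ± 0.098 SE, limma adjusted p = 0.142).

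**Figure D2:**
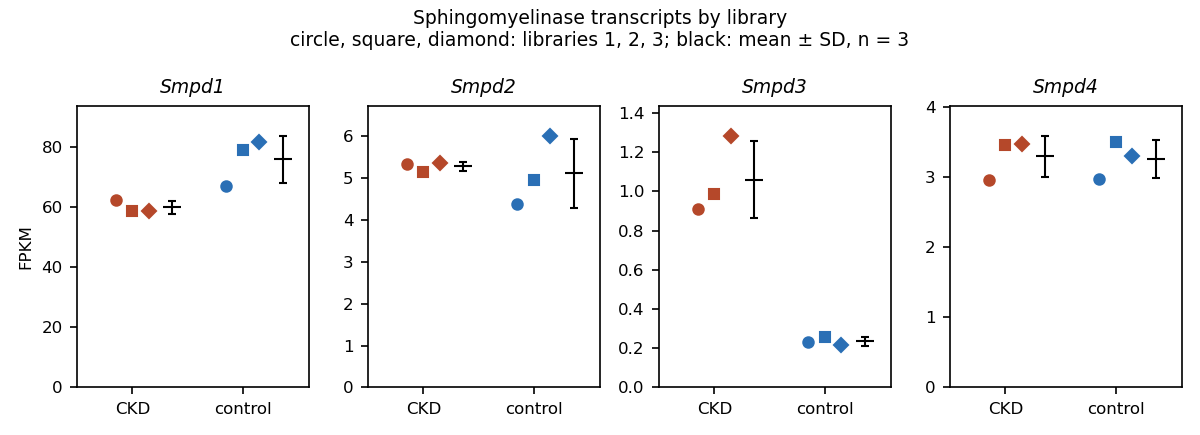
FPKM of the 4 sphingomyelinase genes in each library, CKD left and control right, with mean ± SD (n = 3) in black; each vertical axis starts at 0. For Smpd3 the CKD libraries lie between 0.909 and 1.28 FPKM and the control libraries between 0.216 and 0.260 FPKM, while Smpd2 and Smpd4 overlap.

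Tetraspanins, membrane proteins that organise cargo and serve as the usual surface markers of vesicles, were the most abundant group. Their 7 genes made up 54.5% of the summed FPKM of all 40 genes in CKD and 56.9% in control. Cd81 (NCBI Gene 25621) encodes a marker tetraspanin found mainly at the plasma membrane. Its levels were 385, 323 and 319 FPKM in the CKD libraries 1, 2 and 3, against 414, 504 and 533 FPKM in control replicates 1, 2 and 3. Every CKD library was below every control, narrowly so for the first replicates (log2 fold change -0.49 ± 0.14 SE, 95% interval -0.83 to -0.16, limma adjusted p = 0.128). It passed without control replicate 1 (log2 fold change -0.60, limma adjusted p = 0.0391), a fit that called 12.0% of all tested genes.

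Cd63 (NCBI Gene 29186), a tetraspanin of late endosomes and lysosomes, was the most abundant of the 40 genes. Its values were 516, 643 and 616 FPKM in CKD replicates 1, 2 and 3, against 487, 559 and 608 FPKM in control replicates 1, 2 and 3. The groups overlapped (log2 fold change 0.10 ± 0.13 SE, 95% interval -0.23 to 0.43, limma adjusted p = 0.698). Set against Cd81 within each library, Cd63 stood at a ratio of 1.34, 1.99 and 1.93 in CKD, against 1.18, 1.11 and 1.14 in control, a comparison chosen after the values were seen and given with no test. Cd9 (NCBI Gene 24936), the third marker tetraspanin, stood at 189, 355 and 306 FPKM in CKD, against 279, 364 and 360 FPKM in control. CKD replicate 1 was the lowest of the 6 libraries, and the rest overlapped (log2 fold change -0.27 ± 0.26 SE, 95% interval -0.91 to 0.36, limma adjusted p = 0.566). The 4 other tetraspanin genes gave adjusted p-values from 0.192 to 0.959. Among them Cd151, known as a partner of laminin-binding integrins, averaged 160 ± 12.7 FPKM over the CKD libraries and 205 ± 26.6 FPKM over the control libraries (SD, n = 3 each), with no overlap (log2 fold change -0.34 ± 0.13 SE, limma adjusted p = 0.192). Leaving out control replicate 1 brought it past the threshold (limma adjusted p = 0.0434), in a fit that called 12.0% of all tested genes. Cd82 passed on leaving out CKD replicate 1, its lowest library (log2 fold change 0.46, limma adjusted p = 0.0419). That fit called 15.1% of all tested genes. Over all libraries the groups overlapped for Cd82 (log2 fold change 0.21 ± 0.23 SE, limma adjusted p = 0.623).

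**Figure D3:**
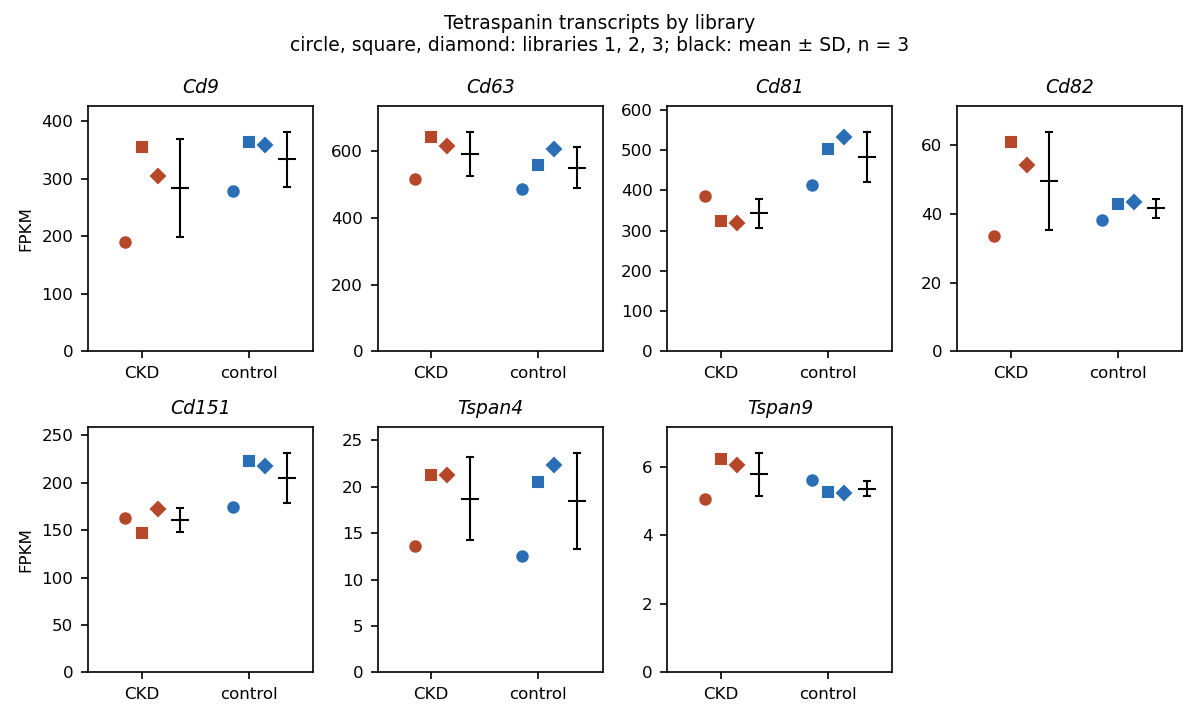
FPKM of the 7 tetraspanin genes in each library, CKD left and control right, with mean ± SD (n = 3) in black; each vertical axis starts at 0. The Cd81 values of CKD lie between 319 and 385 FPKM, all below the control range of 414 to 533 FPKM, while those of Cd63 overlap.

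The ESCRT genes stood at similar summed levels in all 6 libraries. The summed level of the 16 genes came to 482, 530 and 523 FPKM in the CKD libraries 1, 2 and 3, against 495, 522 and 535 FPKM in control replicates 1, 2 and 3. None of the 16 passed, with adjusted p-values from 0.157 to 0.979 (limma). In ESCRT-0, which gathers ubiquitinated cargo, Hgs (NCBI Gene 56084) stood at 17.8, 17.6 and 18.6 FPKM in CKD, against 15.5, 15.6 and 15.8 FPKM in control. The groups did not overlap and the difference was small (log2 fold change 0.19 ± 0.062 SE, 95% interval 0.040 to 0.34, limma adjusted p = 0.157). Its partners Stam and Stam2 had log2 fold changes of 0.10 and 0.011.

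In ESCRT-I, Tsg101 (NCBI Gene 292925) encodes the subunit that binds ubiquitin and is often used as a vesicle marker. It stood at 35.0, 37.7 and 38.8 FPKM in CKD, against 36.9, 32.4 and 32.8 FPKM in control, with overlap (log2 fold change 0.12 ± 0.085 SE, 95% interval -0.084 to 0.33, limma adjusted p = 0.427). Vps28, a core subunit of the same complex, had 32.3, 32.9 and 32.9 FPKM in CKD, against 33.8, 38.0 and 41.9 FPKM in control. All CKD values lay just below the lowest control (limma log2 fold change -0.20 ± 0.094 SE, adjusted p = 0.275). Vps37b, the remaining ESCRT-I gene, had a log2 fold change of -0.14 ± 0.19 SE.

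ESCRT-II links ESCRT-I to ESCRT-III, whose CHMP subunits polymerise and narrow the neck of the bud. Vps25 of ESCRT-II had 27.1, 30.5 and 28.2 FPKM in CKD, against 25.9, 32.5 and 32.2 FPKM in control, and Snf8 varied by no more than 1.08 times between any 2 libraries. Of the CHMP genes, Chmp3 had the lowest p, at 60.3, 63.7 and 65.8 FPKM in CKD, against 60.6, 72.4 and 75.1 FPKM in control (limma log2 fold change -0.12 ± 0.10 SE, adjusted p = 0.513). Both groups overlapped for all 6 genes of these complexes. Pdcd6ip (NCBI Gene 501083) encodes ALIX, which joins syntenin to ESCRT-III. Its values were 45.0, 40.3 and 40.6 FPKM in CKD, against 41.9, 39.9 and 40.9 FPKM in control, so CKD replicate 1 was the highest and the other 5 were close (log2 fold change 0.036 ± 0.074 SE, 95% interval -0.15 to 0.22, limma adjusted p = 0.815). Vps4a, an ATPase that takes ESCRT-III apart, stood at 21.6, 22.7 and 22.4 FPKM in CKD, against 20.2, 20.7 and 19.1 FPKM in control. Here the groups did not overlap, and the test was not passed (log2 fold change 0.15 ± 0.066 SE, limma adjusted p = 0.267). Its paralogue Vps4b and the VPS4 activator gene Vta1 overlapped between groups.

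**Figure D4:**
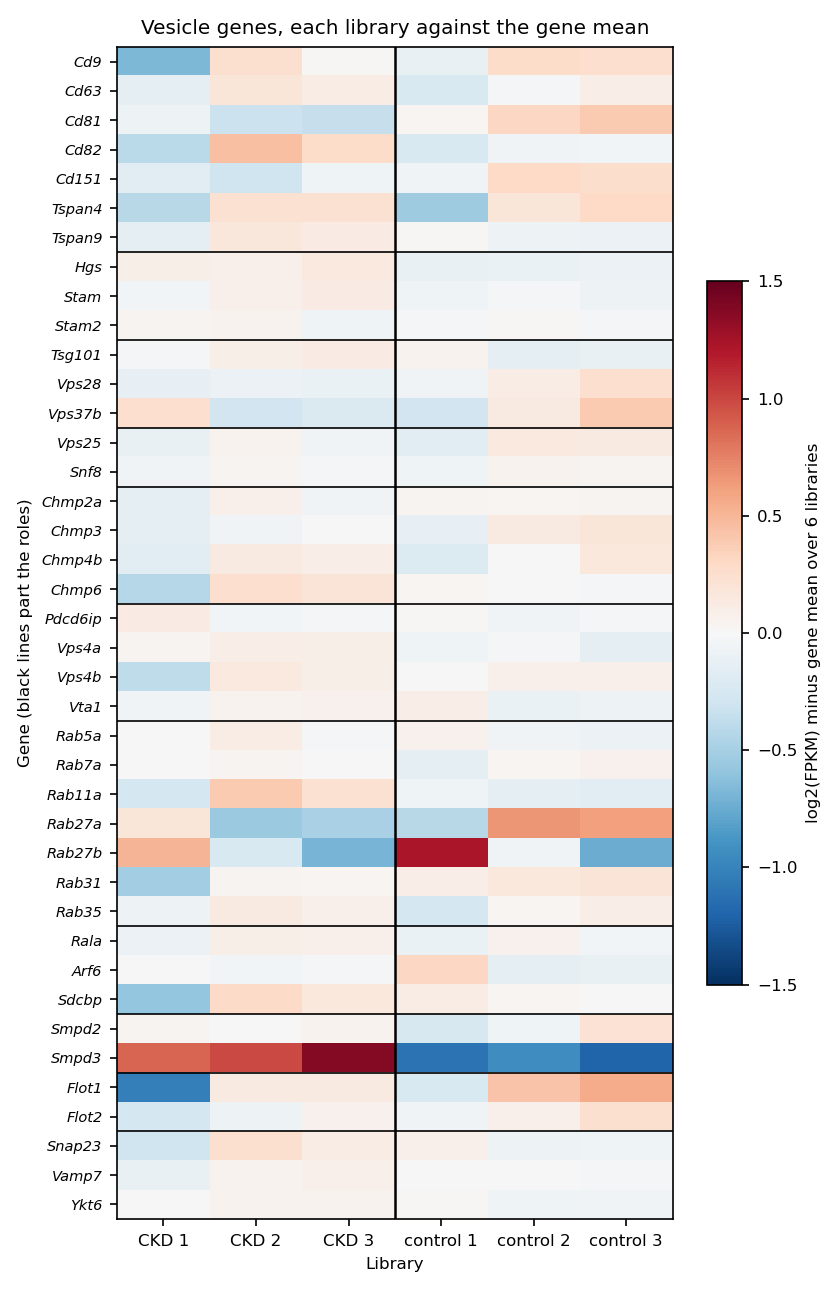
Level of the 40 genes (down the page, black lines part the roles) in each library (across), as log2(FPKM) minus the mean of the gene over 6 libraries; red is above and blue below that mean. Smpd3 is red in all 3 CKD libraries and blue in all 3 controls, while Cd9, Sdcbp and Flot1 are low in CKD replicate 1.

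Of the Rab GTPases, the switches that route endosomes, Rab27a and Rab27b are known from human cells for docking multivesicular bodies at the plasma membrane. Rab27a (NCBI Gene 50645) was at 11.9, 7.12 and 7.43 FPKM in the CKD libraries 1, 2 and 3, against 7.84, 16.5 and 16.0 FPKM in control replicates 1, 2 and 3. The groups overlapped, and the first replicates ran against the others. CKD replicate 1 was 1.52 times as high as control replicate 1, while the mean of CKD replicates 2 and 3 was 0.448 times that of control replicates 2 and 3. The log2 fold change was -0.52 ± 0.33 SE (95% interval -1.33 to 0.28, limma adjusted p = 0.388). Rab27b (NCBI Gene 84590), below the filter, stood at 0.514, 0.307 and 0.222 FPKM in CKD, against 0.845, 0.348 and 0.216 FPKM in control (log2 fold change without a filter -0.11 ± 0.17 SE, limma adjusted p = 0.758). It was highest in the first replicate of each group. Rab27a was the more abundant paralogue per length in all 6 libraries, by 23.2 to 33.4 times in CKD and 9.27 to 74.1 times in control.

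Rab31, described in human cells as driving budding without ESCRT, had the lowest p of the tested Rab genes. It stood at 55.2, 81.3 and 80.5 FPKM in CKD, against 85.1, 88.3 and 90.7 FPKM in control. No CKD library reached the lowest control, and CKD replicate 1 was far below the rest (log2 fold change -0.30 ± 0.16 SE, 95% interval -0.71 to 0.10, limma adjusted p = 0.335). Without both first replicates it was -0.14 and passed (adjusted p = 0.0424). Rab5a of early endosomes and Rab7a of late endosomes had log2 fold changes of 0.051 and 0.027, with 95% intervals of -0.14 to 0.24 and -0.17 to 0.23. Rab35, a GTPase of recycling, overlapped as well (0.085 ± 0.12 SE). Rab11a, a GTPase of recycling endosomes, had 70.7 and 62.9 FPKM in CKD replicates 2 and 3 and 44.9 FPKM in CKD replicate 1, against 48.2 to 51.4 FPKM in control. It passed only without CKD replicate 1 or without both first replicates (log2 fold change 0.42, adjusted p = 0.0338, and 0.45, adjusted p = 0.00128), fits in which 15.1% and 55.0% of all tested genes were called.

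**Figure D5:**
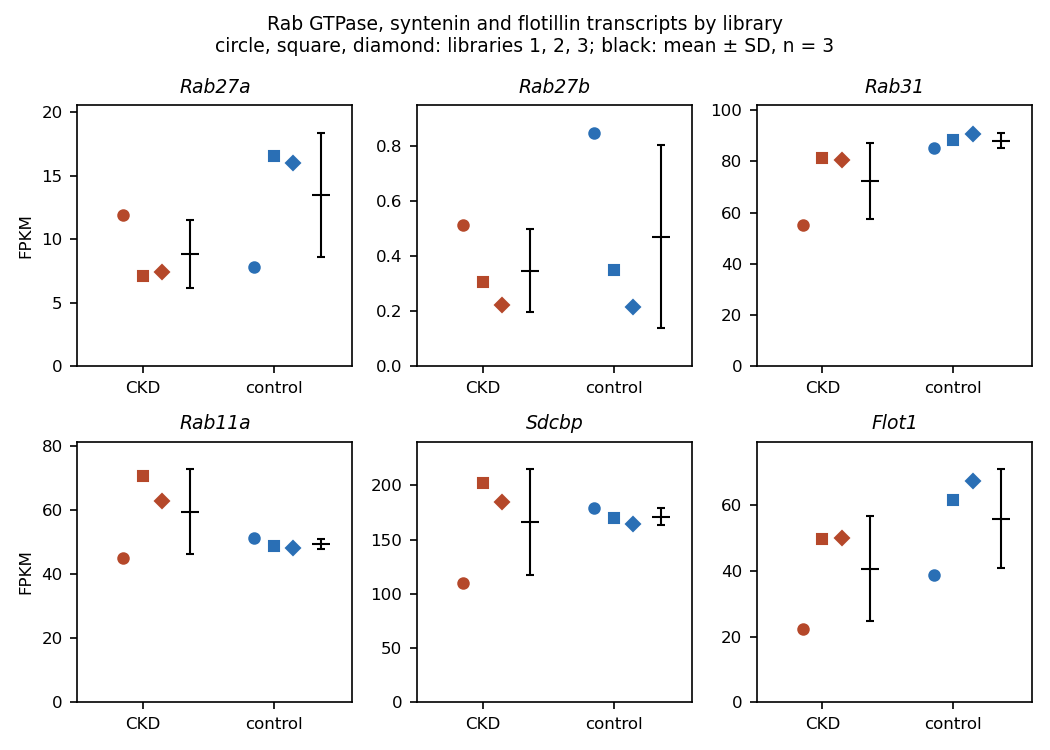
FPKM of 4 Rab genes, the syntenin gene Sdcbp and Flot1 in each library, CKD left and control right, with mean ± SD (n = 3) in black; each vertical axis starts at 0. CKD replicate 1 (circle) lies apart from CKD replicates 2 and 3 for all 6 genes, and the Rab27a values of the first replicates run in the opposite direction to those of the others.

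Sdcbp (NCBI Gene 83841) encodes syntenin, which links syndecans to ALIX, with the GTPase ARF6 acting on the same route. Its levels were 110, 202 and 185 FPKM in the CKD libraries 1, 2 and 3, against 180, 170 and 165 FPKM in control replicates 1, 2 and 3. The CKD libraries lay on both sides of the controls, with replicate 1 lowest of all (log2 fold change -0.092 ± 0.24 SE, 95% interval -0.67 to 0.49, limma adjusted p = 0.853). Without CKD replicate 1 the log2 fold change was 0.18. Rala, known from worm and mouse for the fusion of multivesicular bodies, had 27.2, 30.8 and 30.5 FPKM in CKD, against 27.0, 30.4 and 28.1 FPKM in control, and overlapped. Arf6 overlapped too, with a log2 fold change of -0.040 ± 0.13 SE.

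Flotillins, scaffold proteins of membrane rafts that are carried in vesicles, had negative log2 fold changes without passing. Flot2 stood at 14.4, 16.4 and 18.0 FPKM in CKD, against 16.6, 18.2 and 20.4 FPKM in control (limma log2 fold change -0.17 ± 0.12 SE, adjusted p = 0.434). Flot1 varied most among the tested genes, from 22.4 FPKM in CKD replicate 1 to 67.2 FPKM in control replicate 3, and both first replicates were the lowest of their group (log2 fold change -0.50 ± 0.37 SE, 95% interval -1.42 to 0.43, limma adjusted p = 0.473). The SNARE genes Snap23, Vamp7 and Ykt6, whose products fuse vesicles with target membranes, overlapped between groups. Ykt6, with the lowest p of them, stood at 61.6, 64.2 and 64.5 FPKM in CKD, against 62.6, 59.2 and 59.8 FPKM in control (log2 fold change 0.067 ± 0.066 SE, 95% interval -0.095 to 0.23, limma adjusted p = 0.584).

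Differences between libraries of a group were as large as those between groups for many genes. CKD replicate 1 held the lowest of the 3 CKD values for 28 of the 38 tested genes, against 54.3% of all tested genes. The first replicate of either group held the lowest of all 6 values for 26 of the 38, against 43.1% of all tested genes. With both first replicates left out, 18 of the 38 passed (10 higher, 8 lower), and so did 55.0% of all tested genes (34.7% higher, 20.3% lower), a share above that of these 38. The largest of these was Rab27a (log2 fold change -1.06 ± 0.060 SE, adjusted p = 1.49e-05). In that fit the remaining libraries are the 2 alike pairs, in which the macrophage markers summed to 3173 and 2108 FPKM in CKD and 21.4 and 13.8 FPKM in control. The part of those cells in these 18 calls was not tested.

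The rest of the pathway also had no gene called in the main fit, but its values ranged more widely. In a wider list of 89 vesicle genes, 80 were tested and limma called 0, where 2.07% of all tested genes were called. At an unadjusted p under 0.05, 5 were higher and 7 lower, against 22.1% of all tested genes in either direction. Of the 80, the log2 fold change was positive for 41 and negative for 39, and its median was 0.0064. It ran from -1.17 to 3.36, against -0.52 to 0.24 for the 38. The median of its absolute value was 0.14, against 0.089 for the 38 and 0.17 for all tested genes. The groups did not overlap for 18.8% of them, against 27.8% of all tested genes. By role, the count was 0 of 10 tested for other tetraspanins and their partners, 0 of 16 for other ESCRT genes and 0 of 17 for other Rab genes and their effectors. It was 0 of 15 for lipid enzymes and raft proteins, 0 of 8 for the syndecan and syntenin route, and 0 of 14 for fusion and cytoskeletal genes. Limma-voom called 0 of the 80 as well, where it called 1.16% of all tested genes. With so few genes called anywhere, a count of 0 in groups this small says little about them.

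In the authors' deposited table, 2 of the 40 genes had a q-value under 0.05, against 11.3% of all genes. In the authors' deposited table Smpd3 had a q-value of 2.26e-13 at a log2 fold change of 2.09, and Cd81 a q-value of 0.0160 at -0.57. Of the wider list, 3 genes were higher and 8 lower at that level in the authors' deposited table, which is 12.4% of its 89 genes.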

How the data were processed

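Polyadenylated RNA was sequenced from stranded libraries, per the labels' protocols, 3 each of CKD and control. The authors deposited 1 table with FPKM per library, mean normalized counts per group, fold changes, log2 fold changes, p-values and q-values, per the file headers, in decimal commas. The submitters' processing notes name HISAT2 2.1.0, HTSeq 0.11.2, SAMtools 1.9, FastQC 0.11.9, DESeq 1.34.1, DESeq2 1.22.2 and the build mRatBN7.2; roles and settings are not given in the sources used here. No coordinates or sequences are given here. Gene identifiers of all 40 genes match the RefSeq gene table of GRCr8, a different assembly.

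Fragment counts were recovered from the FPKM values and group means. All 100140 values came out whole within 0.01, with a largest deviation of 0.000534. They served for depth and for limma-voom. Intervals are those of the difference between group means in the limma fits, with errors that rest on the spread between libraries.

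The main test was limma 3.58.1, run in R 4.3.3 with its trend option, two-sided, on log2(FPKM + 1) of genes that reached 1 FPKM in 3 or more libraries, with Benjamini-Hochberg adjustment over all 10638 tested genes and a threshold of 0.05. It was also run on simulated counts, with each library drawn independently. That run cannot show how the test behaves on these data, where some libraries are alike in pairs. Smpd3 and Rab27b fell below the filter and were fitted without it. The design text calls the libraries biological replicates, but no label gives the animal of each, and the names of CKD replicates 1 and 3 and those of control replicates 1 and 2 begin alike. The p-values thus reflect library-to-library spread, part of which may be technical. No pair agreed within sampling noise, but the pairs differed widely in chi-square per degree of freedom. It was 5.53 for control replicates 2 and 3 and 14.1 for CKD replicates 2 and 3. The next lowest value was 139, for CKD replicate 1 and control replicate 1. The members, lists, filter and tests were chosen with earlier results of these data known. All 40 genes are accounted for. Values in every library are given for called genes, the gene with the lowest p of each role, and 10 genes whatever their p (Cd9, Cd63, Cd81, Tsg101, Pdcd6ip, Rab27a, Rab27b, Smpd2, Smpd3 and Sdcbp), while other genes are named with their values already known. Alternatives covered the pseudocount, the filter, the scaling, the test, each library in turn, a block for the replicate number, the disease model tag, conflicting and first libraries, and shared name starts.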

Additional observations from a re-analysis of the deposited data

How the results depend on the processing

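The count of called vesicle genes was also 0 of 38 under another pseudocount, a filter of 5 FPKM, 2 other scalings and limma-voom. The same was seen with the replicate block, the disease model tag, removal of both conflicting libraries and averaging by name start. Of all 10638 tested genes, 186 were called with that pseudocount, 230 and 238 with those scalings, and 123 with limma-voom. Removal of both conflicting libraries gave 298, and averaging by name start 259. With so few genes called in these fits, a count of 0 of 38 says little about the vesicle genes. The fit by the disease model tag called 0 of all 10638 tested genes, so its 0 says nothing about these genes. With the filter of 5 FPKM, 93 of 6858 genes were called. The count became 1 (Smpd3) with no filter, with a filter of 0.5 FPKM and in limma-voom with no filter, the last 2 added after seeing the data. The 0.5 FPKM filter admits Smpd3 only through its CKD libraries, so that call is no further support. It ran from 0 to 2 when a library was left out and was 18 without both first replicates. For the wider list the count of 0 became 1 without both libraries with conflicting tags (Sdc4), 1 with libraries of shared name starts averaged (Rab3d), 49 of 80 without both first replicates (55.0% of all tested genes were called there), and 0 to 10 when a library was left out, with 8 without CKD replicate 1 (15.1% of all tested genes) and 10 without control replicate 1 (12.0%). With the replicate number as a block 0 of the 38 genes were called and the call of Smpd3 was lost (log2 fold change 0.73, limma adjusted p = 0.101). Deviations of same-numbered libraries from their group means correlated at 0.036, -0.031 and 0.11, so the numbers were not taken as pairs. Over all 10638 tested genes the block fit called 88 and the unblocked fit 220.

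Signs were compared across fits only for the gene with the lowest p of each role and those given whatever their p. Among these, reversed signs were all of genes that passed in neither fit, except for Sdcbp without both first replicates. Other genes changed sign as well. Stam2, for one, had a log2 fold change of 0.011 in the main fit and -0.07 in limma-voom with no filter, and Chmp6 0.011 and -0.069. For the genes compared, the reversals were as follows. By the disease model tag the log2 fold change was 0.35 for Cd9, 0.099 for Vps25, 0.047 for Chmp3, -0.079 for Pdcd6ip, 0.14 for Rab31, 0.32 for Sdcbp, -0.013 for Smpd2 and 0.044 for Flot2. Without both conflicting libraries it was 0.057 for Cd9, 0.021 for Vps25, -0.033 for Pdcd6ip and 0.17 for Sdcbp. With size factors, upper quartile and limma-voom in turn it was -0.044, -0.039 and -0.044 for Pdcd6ip, -0.029, -0.024 and -0.031 for Rala, -0.020, -0.016 and -0.0099 for Smpd2, and -0.013, -0.0085 and -0.013 for Ykt6. These scalings moved the median of all genes by -0.069, -0.065 and -0.070. Without both first replicates it was 0.21 for Sdcbp and -0.045 for Smpd2, and with shared name starts averaged 0.028 and -0.012. Leaving out 1 library gave -0.015 to 0.064 for Pdcd6ip, -0.23 to 0.068 for Rab27b, -0.26 to 0.18 for Sdcbp and -0.039 to 0.15 for Smpd2. The cause of these changes was not tested. Depth limits Smpd3 and Rab27b, whose lowest libraries held 45 and 50 fragments.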

Other observations

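Some genes of the wider list came near the threshold, and they are named here after their values were seen. Cers5, which encodes a ceramide synthase, had levels of 42.6, 36.5 and 36.6 FPKM in the CKD libraries 1, 2 and 3, against 53.2, 53.7 and 55.2 FPKM in control replicates 1, 2 and 3, with no overlap (log2 fold change -0.48 ± 0.085 SE, limma adjusted p = 0.0570). Rab3d, a GTPase of regulated secretion, stood at 6.15, 4.03 and 4.94 FPKM in CKD, against 8.97, 15.0 and 14.3 FPKM in control (limma log2 fold change -1.17 ± 0.23 SE, adjusted p = 0.0684). Hpse, which encodes the heparanase that trims the heparan sulphate of syndecans, stood at 6.90, 14.0 and 12.2 FPKM in CKD, against 2.55, 3.96 and 4.47 FPKM in control (limma log2 fold change 1.34 ± 0.29 SE, adjusted p = 0.0843). None of these 3 passed, and all 3 had q-values under 0.05 in the authors' deposited table (0.000677, 8.97e-05 and 0.000364).

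Tetraspanin genes of leukocytes were high where the macrophage markers were high. Cd53 had levels of 3.92, 75.8 and 60.5 FPKM in the CKD libraries 1, 2 and 3, against 11.2, 0.308 and 0.336 FPKM in control replicates 1, 2 and 3, and its groups overlapped (log2 fold change 3.36 ± 1.38 SE, limma adjusted p = 0.229). Cd37, below the filter, stood at 0.206, 3.66 and 2.78 FPKM in CKD, against 0.279, 0.0273 and 0.0149 FPKM in control.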
